A study of Oryza sativa with 30 samples.

Results

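In shoot apices of the rice cultivar Nipponbare (NB), 99 of 55986 counted loci stood high after 4 short days and low both before the shift and after 8 short days. They were chosen on CPM (a gene's counts per 1e+06 counts in genes of that library), averaged over the libraries of a group. A locus entered when its NB day 4 mean was at least 2 CPM, when the day 4 mean was at least 2 times the day 0 mean and at least 2 times the day 8 mean (each mean plus 0.1 CPM), and when every day 4 library lay above every library of days 0 and 8. The Nipponbare levels of days 0, 4 and 8 are therefore given as a description with no test. The rule used neither Nipponbare day 12 nor the second cultivar, Taichung 65 (T65), so the open questions were which of the 99 loci stood high again at Nipponbare day 12 and what they did in T65.

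Both cultivars are temperate japonica rice, and plants 6 weeks old were moved from long days (16 h light, 8 h dark) into short days (10 h light, 14 h dark). Day 0 apices came from plants still in long days, and the others from plants after 4, 8 or 12 short days. NB days 4, 8 and 12 and day 0 held 3 libraries each, as did T65 days 4, 8 and 0, while T65 day 12 held 2. Replicates are numbered in the labels with no word on whether each was a separate harvest, and a p-value here reflects library-to-library spread that may be technical only. No source used here gives the time of day of cutting.

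Rice is a short-day plant. When nights lengthen, leaves make the mobile florigen proteins, and the shoot apical meristem changes from making leaves to making the panicle. Many plant genes outside flowering also swing with temperature, water status, handling and the time of day. Heat shock proteins are chaperones that hold or refold damaged proteins, heat shock factors switch on their genes, and abscisic acid is the hormone of drought, whose targets include the dehydrins that protect drying cells.

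Library totals ranged from 8.61 M to 24.9 M counts in genes (M is 1e+06). The meristem genes OSH1 (LOC_Os03g51690) and OSH15 (LOC_Os07g03770), KNOX homeobox genes, had at least 1571 and 1105 counts in every library. In earlier work on the same data NB day 4 replicate 1 (12.4 M counts) and T65 day 12 replicate 2 (8.61 M) stood apart from the other libraries, and both had been merged from several sequencing runs, as had 3 others. The main counts are also given without the library in question. In addition, 7 of the 23 libraries had a smaller share of reads aligned to several places (5.76 to 6.71% of the counts in genes) than the other 16 (9.59 to 10.9%). Among the 7 were NB day 12 replicate 3, NB day 8 replicate 3 and 5 T65 libraries of days 0, 4 and 8.

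Summed over the 99 loci, NB libraries held 1402 to 1832 CPM on day 0, 3930 to 6128 CPM on day 4, 1631 to 1799 CPM on day 8 and 1214 to 1480 CPM on day 12. T65 libraries held 1853 to 1920 CPM on day 0, 2032 to 2763 CPM on day 4, 2024 to 2493 CPM on day 8, and 3376 and 4042 CPM on day 12. The day 4 peak of Nipponbare is the rule itself, whereas the low day 12 level of Nipponbare and the high day 12 level of T65 are not part of it. In bulk tissue a higher share of cells that express a gene and more RNA per cell cannot be told apart.

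**Figure D1:**
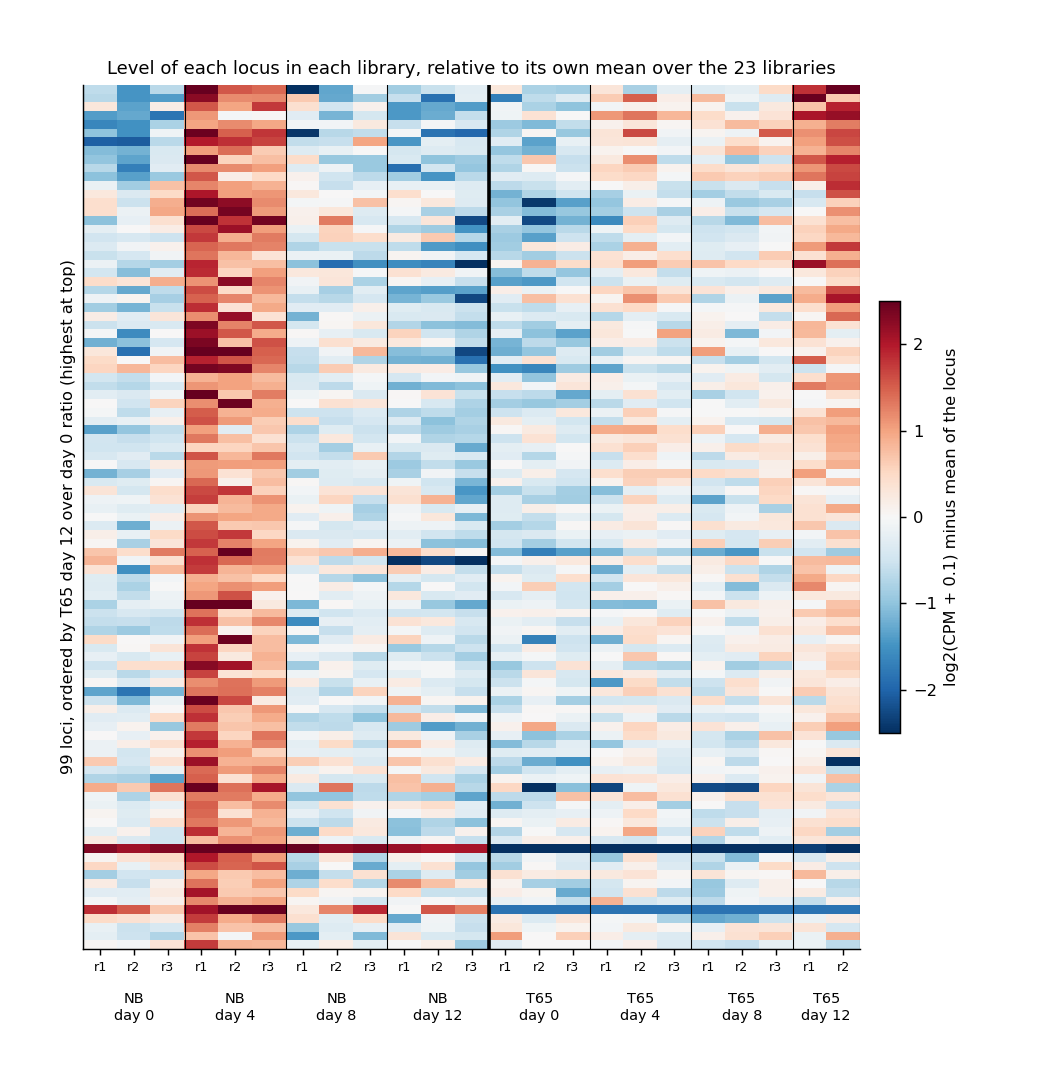
Each row is 1 of the 99 loci and each column 1 of the 23 libraries. Colour is log2(CPM + 0.1) minus the mean of that locus over all libraries, with red above and blue below it, and rows are ordered by the T65 day 12 over day 0 ratio. By the choice of loci the NB day 4 columns are mostly red (294 of their 297 values lie above the locus mean), the NB day 12 columns are pale or blue, and the upper rows are red again in the T65 day 12 columns. The 2 rows that are dark blue in all T65 columns are LOC_Os11g09830 and LOC_Os04g30390.

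The NB day 4 means ran from 2.08 CPM (LOC_Os01g64880) to 979 CPM (LOC_Os06g07220), with a median of 10.2 CPM. There were 49 loci under 10 CPM, 40 loci between 10 and 100 CPM and 10 loci above 100 CPM. The median ratio was 2.64 for day 4 over day 0 and 2.57 for day 4 over day 8. The smaller of a locus's ratios ran from 2.00 to 8.80 with a median of 2.35. Just inside it were LOC_Os08g02220 (smaller ratio 2.0001) and LOC_Os07g48340 (2.0041), and just outside were LOC_Os04g25740 (1.9985) and LOC_Os11g26150 (1.9958), which met every other condition.

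The 3 day 4 libraries of Nipponbare were not alike. Replicate 1 was the highest of the 3 in 75 of the 99 loci (32.1% of the 22839 tested loci), replicate 2 in 20 and replicate 3 in 4. Over all tested loci the counts were 7320 for replicate 1, 11659 for replicate 2 and 3860 for replicate 3. Replicate 2 was thus most often the highest over all tested loci, and replicate 1 among the 99. In 11 of the 99 loci replicate 1 was over 2 times each of the other 2 (1.78% of tested loci). With replicate 1 left out the rule chose 72 loci, of which 55 were among the 99. Leaving out replicate 2 gave 190 loci with 86 of the 99, and leaving out replicate 3 gave 197 with 96. LOC_Os06g07220, the most abundant of the 99 loci, shows the unevenness, with 1523, 555 and 859 CPM on day 4 against 407, 363 and 415 CPM on day 0.

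HSP101 (LOC_Os05g44340) encodes the ClpB-type chaperone that pulls apart protein aggregates after heat. In Nipponbare it stood at 11.8, 12.9 and 8.71 CPM on day 0, 66.3, 30.3 and 31.8 CPM on day 4, 25.8, 13.9 and 23.1 CPM on day 8 and 11.4, 13.2 and 20.8 CPM on day 12. In T65 it stood at 29.1, 40.0 and 31.5 CPM on day 0, 66.5, 79.5 and 55.6 CPM on day 4, 43.0, 33.6 and 39.4 CPM on day 8, and 129 and 143 CPM on day 12. The T65 libraries of every day lay above all NB libraries of the same day, except that NB day 4 replicate 1 reached the T65 day 4 range, and HSP101 had an intermediate high at T65 day 4 before its highest level on day 12.

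HSFA3 (LOC_Os02g32590) is a heat shock factor of class A, the class of activators. Nipponbare had 4.02, 3.77 and 6.60 CPM on day 0, 18.1, 22.8 and 13.5 CPM on day 4, 6.88, 7.57 and 8.56 CPM on day 8 and 6.33, 6.88 and 6.66 CPM on day 12. T65 had 4.37, 3.76 and 6.51 CPM on day 0, 9.23, 8.59 and 8.298 CPM on day 4, 10.8, 15.4 and 12.96 CPM on day 8, and 15.9 and 20.2 CPM on day 12. The cultivars began at like levels, Nipponbare peaked on day 4, and the T65 group means were higher on each later day, with no overlap between neighbouring days.

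Of the abscisic acid genes, NCED3 (LOC_Os03g44380) encodes the dioxygenase that cleaves carotenoids in the committed step of abscisic acid synthesis. Nipponbare had 2.12, 0.494 and 2.92 CPM on day 0, 5.73, 3.01 and 3.26 CPM on day 4, 1.26, 1.97 and 2.02 CPM on day 8 and 2.58, 1.87 and 1.04 CPM on day 12. The lowest day 4 library exceeded the highest day 0 library by little. In T65 the 11 libraries ranged from 0.631 to 2.73 CPM with overlapping days.

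RAB21 (LOC_Os11g26790), a dehydrin of rice that responds to abscisic acid and drying, had 0.309, 0.225 and 0.526 CPM on day 0, 6.78, 1.08 and 1.26 CPM on day 4, 1.01, 0.320 and 0.327 CPM on day 8 and 0.517, 0.302 and 0.328 CPM on day 12 in Nipponbare. Its day 4 mean thus rests mainly on replicate 1, and the other day 4 libraries were close to NB day 8 replicate 1. In T65 it had 2.26 and 3.02 CPM on day 12 against 0.420, 1.18 and 0.437 CPM on day 0. Close relatives of RAB21 lie beside it, and reads that align to several places are not in the counts, so its level is uncertain.

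The remaining 95 loci are given by their MSU identifiers, because no name for them could be taken from the files or the RefSeq table used. LOC_Os10g36260 had 12.6, 13.6 and 22.5 CPM on day 0, 77.7, 88.6 and 77.0 CPM on day 4, 37.2, 37.2 and 46.3 CPM on day 8 and 26.3, 37.7 and 29.8 CPM on day 12 in Nipponbare. Its day 8 and day 12 libraries all stayed above every day 0 library. LOC_Os02g26700, among the most abundant, had 182, 169.7 and 214 CPM on day 0, 598, 557 and 514 CPM on day 4, 216, 178 and 257 CPM on day 8 and 120.2, 129 and 137 CPM on day 12, so that day 12 lay below all other NB days. LOC_Os05g27730, the member in the defence list, had 30.2, 20.0 and 12.97 CPM on day 4 against 6.53, 2.201 and 6.79 CPM on day 0.

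**Figure D2:**
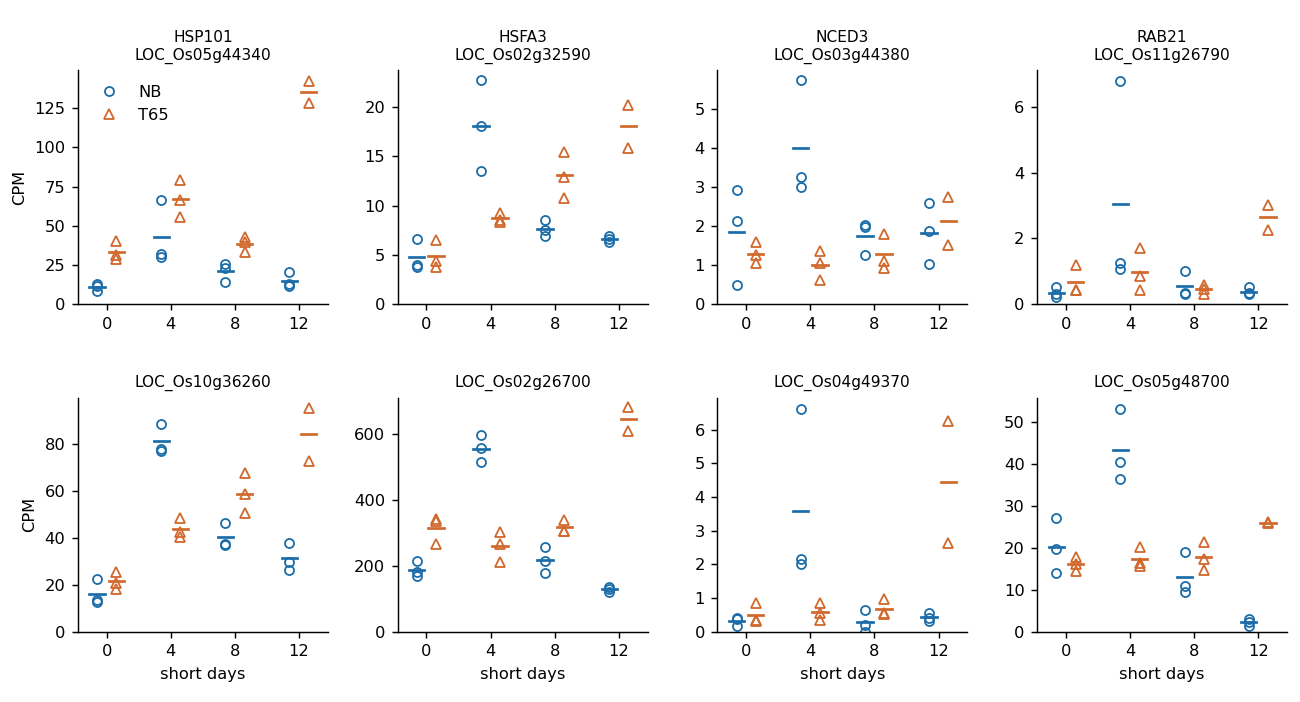
CPM of 8 of the 99 loci by number of short days. Circles are single NB libraries, triangles single T65 libraries, and short bars group means (3 libraries each, 2 for T65 day 12). In HSP101, HSFA3, LOC_Os10g36260 and LOC_Os02g26700 the T65 day 12 libraries lie above all other T65 libraries, and in LOC_Os05g48700 NB day 12 lies below all others at 1.47 to 3.02 CPM.

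The 10 loci with the largest smaller ratio were mostly of low level. At their head was LOC_Os04g49370 (smaller ratio 8.80), which had 6.62, 2.16 and 2.01 CPM on day 4 against 0.397, 0.180 and 0.383 CPM on day 0 and 0, 0.213 and 0.653 CPM on day 8. LOC_Os08g10500 (8.13) had 13.4, 11.5 and 2.75 CPM on day 4 against 1.15, 0.180 and 0.861 CPM on day 0, and LOC_Os09g20390 (6.93) had 25.6, 16.3 and 3.17 CPM against 1.5003, 2.25 and 2.39 CPM. In both of these loci replicate 3 was the low one of the day 4 libraries. LOC_Os04g30390 (5.35) was carried by replicate 2 instead, with 1.45, 10.9 and 2.94 CPM on day 4 against 1.19, 0.943 and 0.478 CPM on day 0, and LOC_Os09g32870 (4.02) by replicate 1, with 20.2, 4.49 and 6.95 CPM against 2.29, 2.16 and 2.63 CPM. Different libraries thus carried different loci. LOC_Os02g33380 (6.64), LOC_Os03g21660 (3.75), LOC_Os10g35070 (3.67) and LOC_Os03g12815 (3.66) had day 4 means of 5.58, 2.46, 3.07 and 3.11 CPM, and RAB21 (4.82) completes the 10.

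Genes of related pathways were examined in 14 lists of 174 genes. Among list genes outside the 99 loci, every NB day 4 library lay above every library of days 0 and 8 in 4 of 13 circadian clock genes, 2 of 10 abscisic acid and dehydration genes, 1 of 18 heat shock proteins, 1 of 16 heat shock factors, 1 of 7 DREB1 genes, 1 of 5 low oxygen and sugar starvation genes and 1 of 7 nutrition genes, against 5.96% of all other tested loci. The rule used this contrast, and nothing is read from the counts. The 2 in the abscisic acid list were the dehydrin RAB16B (LOC_Os11g26780), at 3.15, 0.802 and 1.45 CPM on day 4 against 0.132, 0.359 and 0.574 CPM on day 0, and the late-embryogenesis protein LEA3 (LOC_Os05g46480), at 5.33, 2.204 and 2.89 CPM against 1.94, 1.39 and 2.11 CPM. In 1 of the same 10 genes every NB day 4 library lay below every library of days 0 and 8 (7.35% of other tested loci). That gene was NAC5 (LOC_Os11g08210), at 3.96, 5.33 and 5.27 CPM on day 4 against 17.6, 14.1 and 16.7 CPM on day 0. None of the 15 tested light-harvesting and carbon fixation genes or the 3 tested secondary wall genes had every NB day 4 library above those of days 0 and 8. No DREB1 gene, a family of transcription factors that responds to cold, was among the 99 loci. The 1 counted above was LOC_Os06g06970, at 3.15, 2.53 and 2.24 CPM on day 4 against 1.63, 1.84 and 2.201 CPM on day 0. The family's summed level was 30.4 CPM in the highest and 3.08 CPM in the lowest NB day 4 library, against 1.99 to 2.97 CPM on day 0. DREB1B (LOC_Os09g35010) had 3.63, 9.06 and 0.0933 CPM on day 4, so that replicates 1 and 2 were high and replicate 3 was not.

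Cell division genes went the other way. All 6 genes of that list had every NB day 4 library below every library of days 0 and 8 (7.35% of other tested loci). MCM4 (LOC_Os01g36390), a subunit of the replicative helicase, had 54.3, 62.7 and 67.1 CPM on day 4 against 105, 130.1 and 106 CPM on day 0. The list summed to 550 to 627 CPM on NB day 4 and 634 to 693 CPM on T65 day 12, while the other groups ran from 798 to 1190 CPM. The 99 loci stood highest on NB day 4, by the rule, and on T65 day 12, outside it. The cell division list, chosen with earlier results of these data known, stood lowest in the same groups. Summed heat shock proteins were at 6635 to 10896 CPM on NB day 4 against 5121 to 6006 CPM on NB day 0, and at 10794 and 11822 CPM on T65 day 12 against 6619 to 9722 CPM on T65 day 0. Most of the heat shock sum was 1 gene, LOC_Os11g47760, with 7958, 4902 and 5406 CPM on NB day 4 against 3507, 4122 and 3444 CPM on NB day 0. In 2 of 18 heat shock proteins outside the 99 loci every NB day 4 library lay below every library of days 0 and 8. The part of either list in the behaviour of the 99 loci was not tested.

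**Figure D3:**
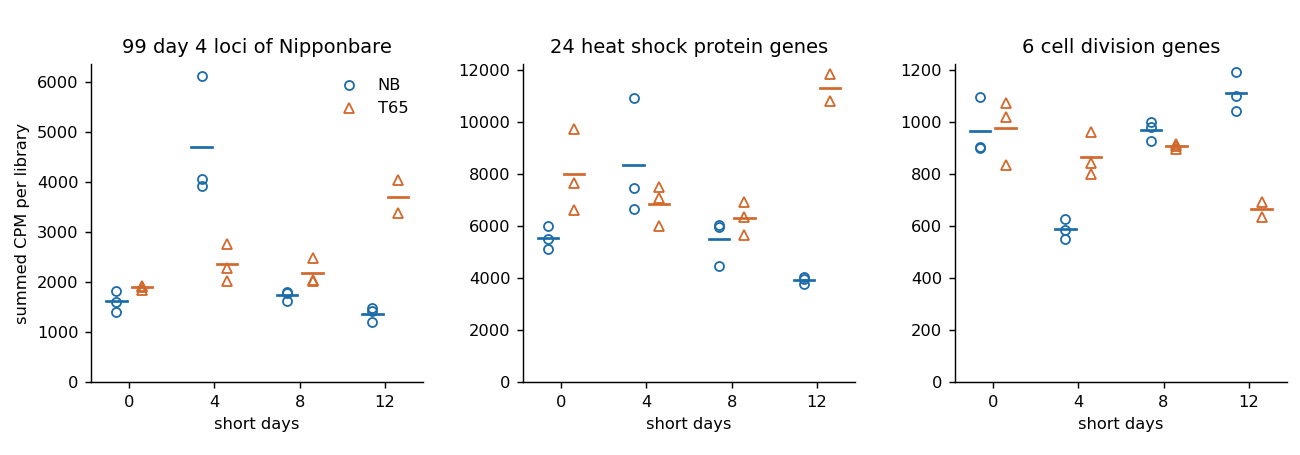
Summed CPM per library of the 99 loci (left), of 24 heat shock protein genes (middle, HSP101 included) and of 6 cell division genes (right), by number of short days. Circles are NB libraries, triangles T65 libraries and bars group means. The 99 loci peak at NB day 4 by choice and at T65 day 12 without it, and the cell division genes are lowest in those groups.

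Leaf and vascular tissue can remain on a dissected apex, and their markers were summed in each library. The green leaf list (16 genes counted) summed to 169 to 176 CPM on NB day 0, 186 to 254 CPM on day 4, 322 to 379 CPM on day 8 and 223 to 420 CPM on day 12, and to 173 to 213 CPM on T65 day 12 against 124 to 196 CPM on T65 day 0. The secondary wall list (4 genes) summed to 45.8 to 54.9 CPM on NB day 4 against 43.6 to 56.8 CPM on NB day 0, and to 51.4 to 68.3 CPM on T65 day 12 against 46.3 to 52.1 CPM on T65 day 0. The green leaf sum was thus higher on NB day 8 than on NB day 4, but its genes differed. The mean of CAB1R (LOC_Os09g17740) rose from 16.5 to 48.8 CPM, while LOC_Os12g19381 went from 2.28 to 2.19 CPM and LOC_Os12g19470 from 3.72 to 3.54 CPM. T65 day 12 replicate 2 held the highest secondary wall sum. Most of it was 1 gene, CESA4 (LOC_Os01g54620), at 63.4 CPM, and CESA9 (LOC_Os09g25490) stood at 1.16 CPM in that library. The part of these tissues in the result was not tested.

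The fold and library limits of the rule were applied to Nipponbare day 12 in place of day 4, with no minimum mean. Of the 99 loci 0 met them. Of tested loci 0.705% did, so a count of 0 is near that share and says nothing particular to the 99 loci. As a description, since the loci were chosen for a high day 4, the day 12 mean was below the day 4 mean in all 99 loci, and in 92 of them every day 12 library lay below every day 4 library (21.6% of tested loci). Over the 99 loci the day 12 level had a median of 0.331 times the day 4 level (quartiles 0.240 and 0.434) and 0.909 times the day 0 level. Day 12 thus lay near day 0, with the day 12 mean below the day 0 mean in 59 of the 99 loci (61.7% of tested loci) by CPM. Every day 12 library lay below every day 0 library in 19 loci (27.3%) and above in 8 (12.9%), and below every day 8 library in 19 (13.4%) and above in 2 (9.91%). The count of 59 was 51 when library totals were scaled by TMM (edgeR's trimmed mean of M values).

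A few loci departed from this at day 12, and those named here were chosen after their values were seen. LOC_Os01g31370 alone had every day 12 library above every library of days 0 and 8 (5.47% of tested loci). It had 4.2003, 2.35 and 2.40 CPM on day 12 against 1.54, 0.988 and 2.01 CPM on day 0. Day 8 stood at 1.85, 2.29 and 2.16 CPM, so the lowest day 12 library exceeded the highest of day 8 by little. On day 4 it had 12.9, 7.34 and 2.61 CPM, so that day 12 replicate 1 lay above day 4 replicate 3. LOC_Os11g04560 came nearest to its day 4 level, with 7.11, 5.19 and 3.71 CPM on day 12 against 8.07, 4.73 and 6.25 CPM on day 4. It met the limits for a return when NB day 12 replicate 3 was left out, and was then the 1 returning locus. It also met them when only the libraries with the larger share of reads aligned to several places were used. In 7 loci the day 12 level was at most 0.5 times the day 0 level (3.46% of tested loci). The furthest below were LOC_Os05g48700, with 2.26, 3.02 and 1.47 CPM on day 12 against 27.1, 14.0 and 19.7 CPM on day 0, and LOC_Os01g15270, with 21.1, 21.1 and 13.2 CPM against 67.0, 48.8 and 82.4 CPM. In both loci day 12 did not overlap day 0.

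Applied to T65 libraries, the rule was met by 0 of the 99 loci and by 5 tested loci (0.0219%), a share so small that a count of 0 carries little information. The tests of T65 levels say more. T65 day 4 against day 0 was tested with edgeR's quasi-likelihood test over all 22839 tested loci with Benjamini-Hochberg adjustment, and all 99 loci were among those tested. Just 1 of the 99 rose and 0 fell (0.114% and 0.035% of tested loci), at an adjusted p under 0.05, and 23 had an unadjusted p under 0.05 (8.96% of tested loci). That locus was LOC_Os10g36260, with 42.3, 48.3 and 40.4 CPM on day 4 against 21.0, 18.25 and 25.6 CPM on day 0 (log2 fold change 1.05 ± 0.18 SE, edgeR adjusted p = 0.00906). The call was lost when T65 day 0 replicate 1, T65 day 0 replicate 2 or T65 day 4 replicate 2 was left out.

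Smaller shifts at T65 day 4 were more common among the 99 loci than the calls show. The median log2 fold change was 0.41, against 0.00 over all tested loci, and 82 of the 99 were above 0. Every T65 day 4 library lay above every T65 day 0 library in 28 loci (8.45% of tested loci) and below in 1 (12.102%). HSFA3 (0.87 ± 0.21 SE, edgeR adjusted p = 0.155), HSP101 (1.05 ± 0.27, edgeR adjusted p = 0.208), LOC_Os03g08500 (0.89 ± 0.25, edgeR adjusted p = 0.262), LOC_Os04g44910 (1.10 ± 0.31, edgeR adjusted p = 0.272) and LOC_Os07g40220 (0.84 ± 0.28, edgeR adjusted p = 0.374) did not pass the test. The lowest adjusted p among loci with negative values belonged to LOC_Os02g26700, LOC_Os03g14050, LOC_Os04g40640, LOC_Os12g41124, LOC_Os01g46760 and LOC_Os02g58310, at -0.74 to -0.17, and none of these passed it. LOC_Os03g14050 was the locus whose T65 day 4 libraries, at 177, 181 and 145 CPM, all lay below those of day 0, at 194, 197 and 190.4 CPM, while Nipponbare had 458, 253 and 311 CPM on day 4 against 124, 136 and 131 CPM on day 0.

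Between T65 day 4 and day 8, where Nipponbare levels dropped by the rule, 0 of the 99 loci changed by edgeR's test, as did 0% of tested loci. At an unadjusted p under 0.05 there were 9 (6.76% of tested loci), the median log2 difference was -0.10, and DESeq2 also made 0 calls. At T65 day 8 against day 0, 2 loci rose and 0 fell (0.486% and 0.578% of tested loci). LOC_Os10g36260 had 50.6, 67.5 and 58.7 CPM on day 8 (1.48 ± 0.18 SE, edgeR adjusted p = 0.000111) and HSFA3 the values given above (1.46 ± 0.21 SE, edgeR adjusted p = 0.000964). Both calls held with each library of the 2 groups left out in turn. The T65 comparisons with day 0 share the same 3 day 0 libraries.

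Day 12 was the high day of T65. Both of its libraries had the larger share of reads aligned to several places. T65 day 0 replicates 2 and 3 and T65 day 8 replicates 1 and 2 had the smaller share. Comparisons of day 12 with those days are thus partly mixed with this difference between libraries. Against day 0, 26 of the 99 loci rose and 0 fell by edgeR's test (2.9% and 2.22% of tested loci), 52 had an unadjusted p under 0.05 (21.1% of tested loci), and the median log2 fold change was 0.80 against 0.00 over all tested loci. The T65 group mean was highest on day 12 in 76 loci (35.5% of tested loci; 74 of the 99 without T65 day 12 replicate 2), on day 8 in 12 (18.16%), on day 4 in 7 (17.2%) and on day 0 in 4 (29.2%). The day 12 mean was at least 2 times the day 0 mean in 36 loci (3.25%), the day 4 mean in 8 (0.972%) and the day 8 mean in 6 (0.814%). Both day 12 libraries lay above every T65 day 0 library in 67 loci (17.85%) and below in 0 (20.3%), and above every other T65 library in 35 (6.82%). Cell division genes were lower in the same libraries, where 5 of the 6 fell and 0 rose, and 7 of 19 tested heat shock proteins rose and 0 fell. Of 13 circadian clock genes 6 rose and 0 fell. At T65 day 4 and at day 8, each against day 0, 4 of these 13 rose and 0 fell (0.114% and 0.486% of tested loci rose). The part of these lists in the result was not tested.

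The 6 loci with the lowest adjusted p at T65 day 12 against day 0 included HSP101, HSFA3 and 4 loci without a name. HSP101 rose by a log2 fold change of 2.03 ± 0.30 SE (edgeR adjusted p = 0.00062) and HSFA3 by 1.89 ± 0.23 (edgeR adjusted p = 0.000131). LOC_Os10g36260 had 72.8 and 95.6 CPM on day 12 (1.97 ± 0.19 SE, edgeR adjusted p = 7.27e-06). LOC_Os02g26700 had 683 and 608 CPM on day 12 against 336, 266 and 344 CPM on day 0 (1.05 ± 0.15, edgeR adjusted p = 0.000514), after 304, 268 and 211 CPM on day 4 and 307, 340.0 and 306 CPM on day 8, so its shift came late. These 4 calls were the ones among the 26 that held with each library of the 2 groups left out in turn.

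Also called were LOC_Os03g08500, with 70.5 and 91.4 CPM on day 12 against 27.1, 24.2 and 29.6 CPM on day 0 (1.59 ± 0.27 SE, edgeR adjusted p = 0.0022), and LOC_Os09g31031, with 63.0 and 80.7 CPM against 20.5, 19.9 and 24.3 CPM (1.75 ± 0.30, edgeR adjusted p = 0.00225). Over the 26 loci the log2 fold changes ran from 0.64 (LOC_Os03g14050) to 3.02 (LOC_Os04g49370). LOC_Os04g49370, the locus with the largest smaller ratio in Nipponbare, had 2.65 and 6.27 CPM on T65 day 12 against 0.841, 0.348 and 0.328 CPM on day 0 (edgeR adjusted p = 0.00878). The abscisic acid members did not pass, with 2.00 ± 0.71 SE for RAB21 (edgeR adjusted p = 0.108) and 0.80 ± 0.53 for NCED3 (edgeR adjusted p = 0.411), while the neighbouring dehydrin gene RAB16B did, at 2.43 and 2.32 CPM on day 12 against 0.672, 0.766 and 0.547 CPM on day 0 (1.86 ± 0.52, edgeR adjusted p = 0.0413). RAB16B was the 1 gene that rose among the 12 tested genes of the abscisic acid list, and 0 fell (2.9% and 2.22% of tested loci).

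**Figure D4:**
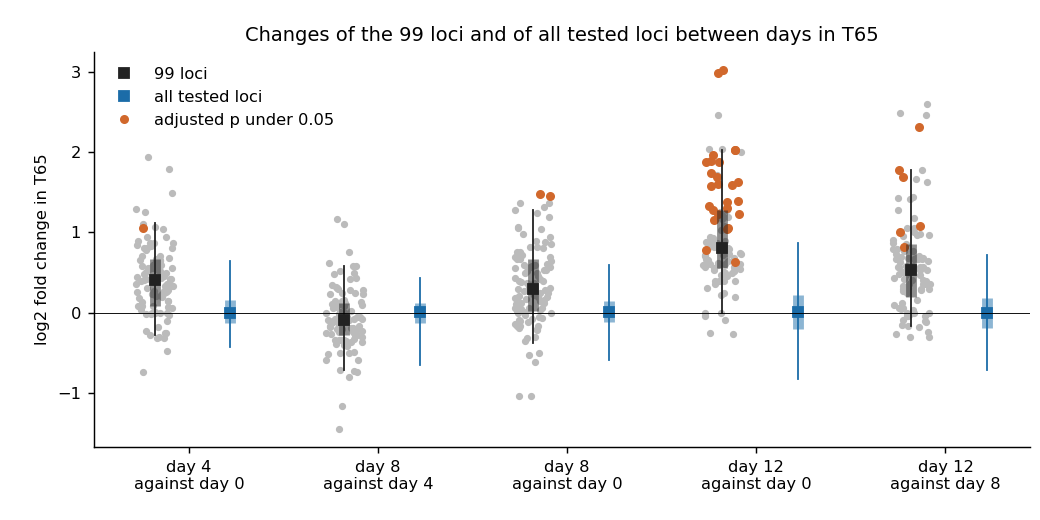
Log2 fold changes in T65 between the days named under the axis. Grey points are the 99 loci and orange points those with an adjusted p under 0.05. Squares are medians, thick bars quartiles and thin lines the range from the 5th to the 95th percentile, on the left for the 99 loci and on the right for all 22839 tested loci. The median of the 99 loci is 0.41 at day 4 and 0.80 at day 12, each against day 0.

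The number of day 12 calls depended on single libraries. It was 6 without T65 day 12 replicate 2, 13 without T65 day 0 replicate 1, 15 without T65 day 0 replicate 2, and 2 when only the libraries with the larger share of reads aligned to several places were used, which left 1 library on day 0. The shares of all tested loci called in these fits are not given, so the counts show only how far the calls moved. The direction was shared by both day 12 libraries. Replicate 1 by itself lay above every T65 library of days 0, 4 and 8 in 46 loci (11.4% of tested loci) and replicate 2 in 56 (24.099%), with replicate 2 above replicate 1 in 64 (49.2%). Replicate 1 was at least 2 times the T65 day 0 mean in 30 loci (2.34%) and replicate 2 in 38 (4.84%). Among the 55 loci that also met the rule without NB day 4 replicate 1, 19 rose in T65 at day 12 against day 0 (2.9% of tested loci). Over the 55 loci the median log2 fold change was 0.87.

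Between T65 day 8 and day 12, 6 of the 99 loci rose and 0 fell (0.451% and 0.285% of tested loci), with a median log2 difference of 0.53 against 0.00 over all tested loci. LOC_Os02g26700 (1.00 ± 0.15 SE, edgeR adjusted p = 0.00703), HSP101 (1.78 ± 0.30, edgeR adjusted p = 0.012) and LOC_Os01g15270 (1.69 ± 0.28, edgeR adjusted p = 0.012) were among them. LOC_Os01g15270 had 138 and 64.2 CPM on day 12 against 32.3, 26.9 and 34.9 CPM on day 8. The count was 2 without T65 day 12 replicate 2 and 14 without replicate 1. HSFA3 (0.43 ± 0.22, edgeR adjusted p = 0.343) and LOC_Os10g36260 (0.48 ± 0.19, edgeR adjusted p = 0.199) did not pass here, and their T65 means already stood at 13.1 and 58.9 CPM on day 8.

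Before the shift the 99 loci already differed between the cultivars in both directions. The T65 day 0 mean was above the NB day 0 mean in 41 of them (39.7% of tested loci). Every T65 library lay above every NB library in 15 (11.7%) and below in 20 (22.002%). These counts are near the shares of all tested loci and say nothing particular to the 99 loci. Summed over the 99 loci, every T65 day 0 library lay above every NB day 0 library. Across the 99 loci the rank correlation (Spearman's rho) of the NB day 4 over day 0 ratio was 0.41 with the T65 day 4 over day 0 ratio, 0.49 with that of day 8 and 0.46 with that of day 12. Without NB day 4 replicate 1 these were 0.34, 0.46 and 0.50, and without T65 day 12 replicate 2 the correlation with day 12 was 0.44. These are descriptions over loci that share libraries and were chosen for a high first ratio.

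A pair of loci was all but missing from T65. LOC_Os04g30390 had 0 counts in all 11 T65 libraries, which allows a level of up to 0.0159 CPM (3 counts over the T65 total, counting error only), whereas NB libraries had 0.258 to 10.9 CPM. LOC_Os11g09830 had 1 count in T65 and 2.90 to 12.35 CPM in Nipponbare, with 12.35, 6.57 and 6.76 CPM on day 4 against 3.53, 3.099 and 3.54 CPM on day 0. Leaving these 2 loci out, the median log2 fold change of the other 97 at T65 day 12 against day 0 was 0.80.

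In 18 loci (3.98% of tested loci) both T65 day 12 libraries lay above every T65 day 0 library while every NB day 12 library lay below every NB day 0 library, and in 0 loci (2.68%) was it the reverse. The count was also 18 without T65 day 12 replicate 2. LOC_Os03g08500 had 70.5 and 91.4 CPM on T65 day 12 against 27.1, 24.2 and 29.6 CPM on T65 day 0, and in Nipponbare 28.4, 25.8 and 16.88 CPM on day 12 against 40.0, 47.8 and 54.1 CPM on day 0. LOC_Os05g48700 had 25.8 and 26.2 CPM on T65 day 12 against 14.5, 16.2 and 17.88 CPM on day 0, which missed the threshold (0.70 ± 0.27 SE, edgeR adjusted p = 0.131), beside the low Nipponbare day 12 values given above. The difference between the cultivars was not tested.

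**Figure D5:**
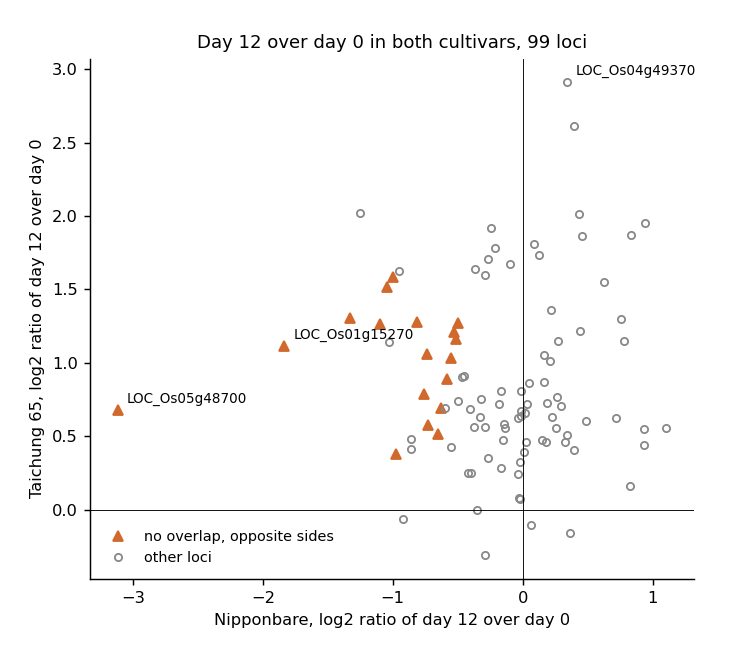
Each point is 1 of the 99 loci. The x axis is the log2 ratio of day 12 over day 0 in Nipponbare and the y axis the same ratio in Taichung 65 (group means plus 0.1 CPM). Triangles are the 18 loci whose day 12 libraries all lie above day 0 in T65 and all below day 0 in Nipponbare. Most points lie above 0 on the y axis and spread to both sides of 0 on the x axis.

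The 99 loci were spread over the genome. By the chromosome in their identifiers, 19 were on chromosome 2, 16 on chromosome 1, 14 on chromosome 3, 11 on chromosome 4 and 1 on chromosome 12, which is 0.709, 0.492, 0.47, 0.561 and 0.0772% of the tested loci of those chromosomes. Counted in the order of the identifiers, 4 pairs had at most 10 other loci between them. LOC_Os08g36580 and LOC_Os08g36600 had 1 locus between them, and LOC_Os03g19270 and LOC_Os03g19290 had 2. The paired loci differed in level: LOC_Os03g19290 had 10.98, 4.81 and 4.85 CPM on NB day 4 against 2.56, 1.71 and 1.53 CPM on day 0, and LOC_Os03g19270 had 3.47, 2.36 and 1.73 CPM against 0.883, 0.943 and 1.20 CPM.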

How the data were processed

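Shoot apex RNA of Nipponbare and Taichung 65 was sequenced, and 23 libraries in 8 groups were used. The deposited whole-number counts per locus carry MSU rice locus identifiers. Tools named in the submitters' processing notes are HTSeq, TopHat2, Bowtie2, edgeR 3.6.4 and R 3.1.0. No source used here gives the genome build, annotation release or strand setting, so loci that overlap or have an antisense partner are uncertain. Each file ends in 5 summary lines, which stayed out of totals and tests (no feature 4.72 to 5.51% and ambiguous 2.01 to 2.44% of the counts in genes), and reads aligned to several places are not in the counts per locus.

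The members and gene lists were chosen with earlier results of these data known. Libraries of a group differed by more than sampling noise (chi-square per gene 5.93 to 51.5), so none was counted as a copy. Counts were tested with edgeR 4.0.16 (R 4.3.3): TMM scaling, filterByExpr (22839 loci kept, all 99 members among them), 1 quasi-likelihood model over the 8 groups (15 residual degrees of freedom), 5 T65 contrasts, two-sided, with Benjamini-Hochberg adjustment over all tested loci and a threshold of 0.05. Each SE was worked back from the test, as the absolute log2 fold change divided by the square root of its F statistic. Alternatives were DESeq2 1.42.0, its size factors, no filter, fits on the compared groups alone, a replicate block, the 16 libraries with the larger share of reads aligned to several places, each library left out in turn, and other limits for the rule. The test was also run on simulated counts with the same spread for every locus and changes at T65 day 4 alone. That run does not cover spread that differs between loci or the smaller T65 day 12 group.

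Named loci were members in a gene list, the 10 with the largest smaller ratio, those returning at NB day 12, the 6 with the lowest adjusted p per direction at T65 day 4 and the 6 highest-ranked rises at T65 day 12, with others named as chosen after their values were seen. Names came from RefSeq (assembly ASM3414082v1), where 125 of 174 list genes had theirs on the same chromosome. List names absent there are replaced by the locus identifier. A fitted T65 fold change of a locus at or near 0 counts is not read.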

Additional observations from a re-analysis of the deposited data

Results flagged for a closer look

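In 18 of the 99 loci (3.98% of tested loci) the cultivars moved in opposite directions between day 0 and day 12, with both T65 day 12 libraries above every T65 day 0 library and every NB day 12 library below every NB day 0 library. The values below are the T65 log2 ratio of day 12 over day 0 minus the NB log2 ratio (group means plus 0.1 CPM), so a positive value means that the ratio was higher in T65. The difference between the cultivars was not tested, and each ratio rests on the 2 libraries of T65 day 12.

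The difference was 3.79 for LOC_Os05g48700, 2.95 for LOC_Os01g15270, 2.63 for LOC_Os03g19290, 2.58 for LOC_Os03g08500, 2.56 for LOC_Os04g31710, 2.36 for LOC_Os07g09490 and 2.09 for LOC_Os05g08640. It was 1.80 for LOC_Os01g17050, 1.77 for LOC_Os03g22270, 1.74 for LOC_Os01g38980, 1.67 for LOC_Os01g65904, 1.58 for LOC_Os02g26700 and 1.55 for LOC_Os02g45930. The smallest differences were 1.47 for LOC_Os03g19270, 1.36 for LOC_Os04g50120, 1.32 for LOC_Os03g13840, 1.31 for LOC_Os04g52670 and 1.17 for LOC_Os03g04770. LOC_Os05g08640 also met the condition at day 8 over day 0, with a difference of 1.37.

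In LOC_Os03g14050 the opposite held at day 4 over day 0, where the T65 ratio minus the NB ratio was -1.60. The rise in Nipponbare is part of how that locus was chosen, so only its T65 side, where every day 4 library lay below every day 0 library, is an observation.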

How the results depend on the processing

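Over the alternatives tried for the 5 T65 comparisons, single-locus fold changes were compared for the named loci only. Loci chosen after their values were seen were left out. No fold change changed sign where the reported fit or the alternative passed the threshold. A sign change between fits that both missed it was not counted as a reversal. Of 1435 such values, 1355 kept their side of the threshold, 48 passed it where the reported fit did not, and 32 no longer passed it. Without the filter on low counts the calls higher became 21 at T65 day 4 against day 0, 2 at day 8 against day 4, 14 at day 8 against day 0, 53 at day 12 against day 0 and 29 at day 12 against day 8, and those lower 5 at day 8 against day 4 and 2 at day 8 against day 0. In that fit (36902 loci) the prior degrees of freedom of edgeR were 939.5, against 6.03 in the reported fit, so each locus's own spread counted for little and the added calls are not read. With the 2 compared groups alone the calls higher were 4, 7 and 37 at days 4, 8 and 12 against day 0. DESeq2 gave 2 at day 4 and 30 at day 12 against day 0, and 14 at day 12 against day 8. With the 16 libraries of larger share of reads aligned to several places, T65 day 0 kept 1 library, and the calls higher were 0, 0 and 2 at days 4, 8 and 12 against day 0 and 0 at day 12 against day 8. Leaving out 1 library at a time, the calls higher ran from 0 to 1 at day 4, from 2 to 2 at day 8 and from 6 to 28 at day 12 against day 0, and from 2 to 14 at day 12 against day 8. A group left with 1 library was assumed to vary like the others. Restricting the count to the 55 loci that met the rule without NB day 4 replicate 1, an alternative chosen after seeing the data, gave 1, 0, 2, 19 and 5. Shares of all tested loci are not given for the alternative fits, so their counts show only how far the calls moved. Except where a value is given for it, the cause of these shifts was not tested.

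The replicate numbers were not taken to pair the libraries, since the deviations of same-numbered libraries of a cultivar correlated above 0.1 in 9 of 33 pairs, 2 of 15 in T65 and the other 7 in Nipponbare, the highest at 0.496. With replicate number as a block the calls higher were 1, 0, 2, 26 and 6 in the 5 T65 comparisons, in the order given above for the filter.

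The rule chose 99 loci as reported, 63 with a pseudocount of 1, 361 with a fold limit of 1.5 and 17 with one of 3, and 72 to 197 with 1 library left out. With TMM-scaled CPM it chose 105, of which 88 were among the 99. The loci returning at NB day 12 were 0 as reported, 0 to 1 with 1 library left out, 1 with the libraries of larger share and 1 with a minimum mean of 1 CPM, a locus outside the 99. The loci with the same pattern in T65 were 0 as reported, 1 with a fold limit of 1.5 (HSP101) and 1 with the libraries of larger share (LOC_Os07g09490). On TMM-scaled CPM, 35 in place of 28 loci had every T65 day 4 library above every day 0 library, and 66 in place of 67 had both T65 day 12 libraries above them. Chosen after seeing the data, leaving NB day 4 replicate 1 out of the values of the 99 loci kept at 92 the number with every NB day 12 library below every day 4 library and gave a median day 12 over day 4 ratio of 0.386 in place of 0.331.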
